A study of Homo sapiens with 12 samples.

Results

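The comparison described here asks how the response to a hairpin against MARK2 differed between the lung cancer cell lines H1993 and H1693. It uses the 8 arrays titled H1993 or H1693 out of 12 in the series. For each gene the change in H1993 (knockdown minus control) was set against the change in H1693, over 15888 tested genes of 18132 represented on the array, of which 4136 differed. The difference is positive where the change was higher, or less negative, in H1993, which is called a difference toward H1993. A difference toward H1693 is negative. In both lines the knockdown groups had received, by lentiviral transduction, a short hairpin RNA to MARK2, and the control groups the empty vector pLKO, with 2 biological replicates per group. Per the labels, all 3 lines of the series were chosen because they overexpress MARK2. The third line of the series, H1650, was not used here. The empty vector carries no hairpin, so both knockdown groups also differ from their controls in the presence of a hairpin. No source used here gives the hairpin sequence or the time after transduction.

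MARK2, also called Par-1b, is a protein kinase whose substrates include proteins bound to microtubules, which leave them once phosphorylated, and it takes part in setting up cell polarity. It belongs to the AMPK-related kinases, which LKB1 activates. H1993 is a lung adenocarcinoma line known for amplification of the receptor gene MET. A response that differs between lines can come as a change in one line alone, as a change of unequal size, or as changes of opposite direction, and a gene already at background in a line cannot be seen to fall there. All values are log2 signals, so a difference of 1 is a 2-fold difference.

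The 3' minus 5' signal of GAPDH, a measure of RNA integrity, lay between -0.12 and 0.02 over the 8 arrays, with overlap between control and knockdown arrays in both lines. That of ACTB went from 0.35 and 0.28 in the control to 0.42 and 0.39 in the knockdown arrays of H1993 and from 0.57 and 0.53 to 0.34 and 0.41 in H1693. It was thus higher after knockdown in H1993 and lower in H1693, with no overlap within either line, and its part in the differences between the lines was not tested. Replicate arrays correlated at 0.997 to 0.998 over all probe sets. The lines themselves were far apart, with 10561 genes (66.5% of those tested) differing between the 2 control groups (limma, Benjamini-Hochberg adjusted p below 0.05, the threshold used throughout). A gene is said to pass where it is below that threshold. MET was at 14.02 and 13.95 in the H1993 control arrays and at 11.21 and 11.15 in those of H1693. The epithelial markers EPCAM, CDH1, KRT8 and KRT18 were at 12.11 or above in all 4 groups. KRT19, CLDN4 and CLDN7 lay between 11.61 and 14.74. KRT7 set the lines apart: its control means were 14.16 in H1993 and 6.70 in H1693. After knockdown they were 14.24 and 6.38. The lung lineage markers NKX2-1, NAPSA and SFTPB lay between 6.66 and 7.98 in the 4 groups, SFTA3 was below 5, and the endothelial markers PECAM1, CDH5, VWF and KDR lay between 5.53 and 7.13. Signals of different probe sets cannot be set against each other, so these levels by themselves show neither lineage present or absent. The fibroblast markers COL3A1 and LUM were at 10.42 and 10.92 in the H1693 control arrays. In H1993 they were at 4.69 and 3.74 in the control and at 5.12 and 5.74 in the knockdown arrays. COL1A1 was at 9.85 in the H1693 and 8.11 in the H1993 control arrays. COL1A2 and PDGFRB were closer, at 5.44 and 6.63 in the H1693 and 5.63 and 6.48 in the H1993 control arrays. DCN was below 5 in all 4 groups. The leukocyte marker PTPRC was below 5 in all 4 groups as well. Other leukocyte markers were not: CD68 was at 11.50 in the H1993 and 7.70 in the H1693 control arrays, and CD14 at 8.08 and 5.18. CD3E lay between 5.87 and 5.97 in the 4 groups. LYZ went from 4.48 to 6.18 in H1993 and was below 5 in H1693. These levels by themselves do not show leukocytes present or absent either.

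MARK2 itself fell in both lines, and by more in H1993. It read 9.17 and 9.06 in the H1993 control arrays and 6.76 and 6.77 in the knockdown arrays. In H1693 it went from 7.76 and 7.97 to 6.62 and 6.57. The controls of the 2 lines were 1.25 apart and the knockdown groups 0.17 apart. The change was -2.35 in H1993 and -1.27 in H1693, a difference of -1.08 (SE 0.12, adjusted p = 0.00095), and the dimmer MARK2 probe set gave a difference of -1.54. Of the related kinases, MARK1, MARK3 and MARK4 had differences of 0.44, -0.21 and -0.02, and none passed (adjusted p = 0.0884, 0.151 and 0.917). For MARK1 the result depends on the processing, since with the mean of its probe sets, or without H1693 control replicate 2, it passed, at 0.36 and 0.62. Whether the unequal fall of MARK2 has a part in the differences below was not tested.

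The change differed between the lines for 4136 genes, 26.0% of those tested. It was higher in H1993 for 2335 (14.7%) and lower for 1801 (11.3%), and the median difference over all genes was 0.05. Within single lines, 5958 (37.5%) passed in H1993 and 5871 (37.0%) in H1693. In H1993 20.9% of genes rose and 16.6% fell, and in H1693 19.2% rose and 17.8% fell. The balance of rises and falls depends on the scaling. In H1993 3321 genes rose and 2637 fell as deposited, and 2728 and 3531 with each array centred on its median. In H1693 these counts were 3046 and 2825 as deposited and 2751 and 3303 centred. For the difference between the lines, 2144 were higher and 2100 lower in H1993 with centred arrays, and 2155 and 2175 after quantile normalisation, so the excess of differences toward H1993 depends on the scaling. Most differences were below 2-fold, with 572 genes at 1 or more and 50 at 2 or more. Without H1693 control replicate 1 the higher count was 1517, and without H1693 control replicate 2 or H1693 knockdown replicate 2 the lower count was 1200 or 1197.

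Most of these genes passed in one line only, and a gene that did not pass in a line can still have changed there. Among the 4136, 836 rose and 567 fell in H1993 without passing in H1693, and 652 rose and 656 fell in H1693 without passing in H1993. A further 268 rose in both lines and more in H1993, 158 rose in both and more in H1693, 227 fell in both and more in H1693, and 103 fell in both and more in H1993. In 566 genes, 3.56% of those tested, the lines changed in opposite directions: 288 rose in H1993 and fell in H1693, and 278 did the reverse. The remaining 103 passed in neither line.

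**Figure D1:**
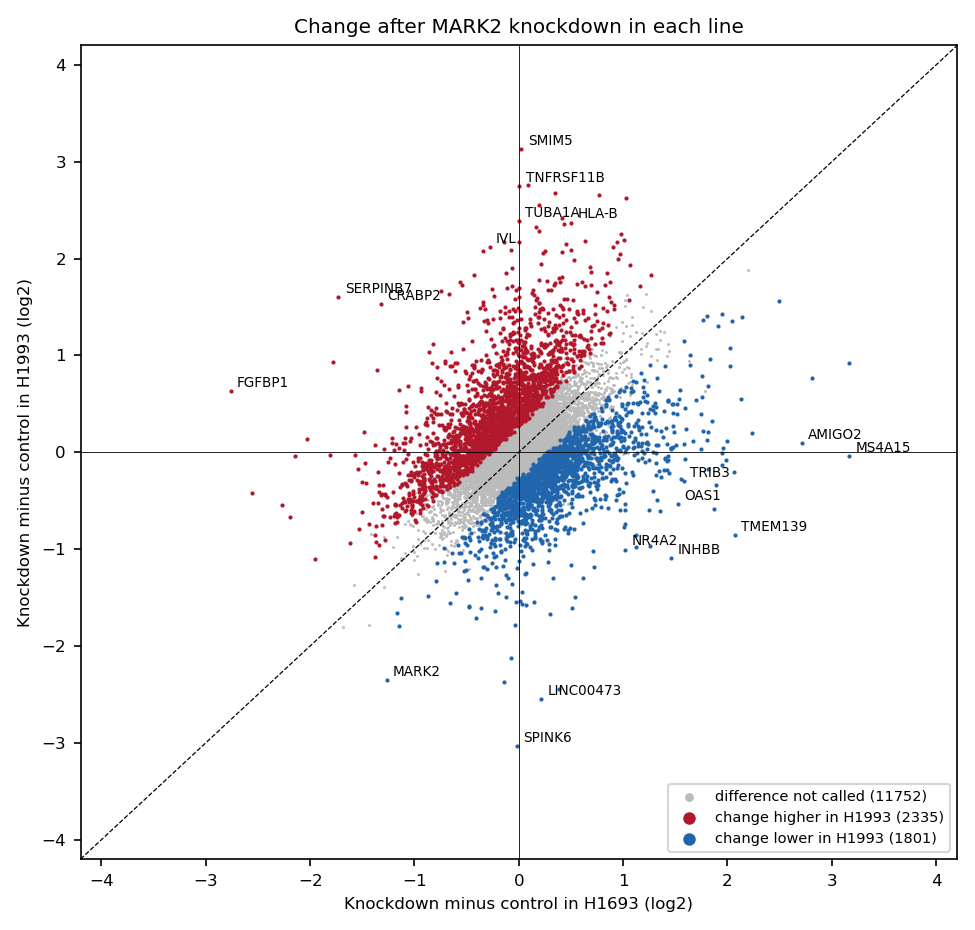
Each point is 1 of the tested genes, with its change after knockdown in H1693 on the x axis and in H1993 on the y axis (log2, mean of 2 knockdown minus mean of 2 control arrays); red points passed for a higher and blue points for a lower change in H1993. The dashed line marks equal change, and FGFBP1, SERPINB7 and CRABP2 lie in the quadrant that is higher in H1993 and lower in H1693.

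Control levels differed for 3536 of the called genes (85.5%), against 66.5% of all tested genes, and by at least 4-fold for 16.7% against 9.67%. The same control arrays enter both values, so these shares are not independent of each other. The gap between the lines was narrower in the knockdown than in the control arrays for 44.4% of the called and 46.3% of all genes. In 266 genes the line with the higher level in the control arrays had the lower level in the knockdown arrays, with both gaps past the threshold. Over all tested genes the knockdown levels differed for 68.7%. The exchange of order covered 1.67% of all tested genes, which are the same 266 genes, all of them called. Gaps of opposite sign make a difference in change nearly certain, so this share is no background for the called genes. Where the larger change was a fall, the other line's control was below 5 in 77 of 1863 called genes (4.13%), against 3.55% over all tested genes.

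The largest differences toward H1993 mixed secreted and differentiation genes with microtubule genes. The rule for naming took the 12 largest whose other probe sets, where bright enough, had the same sign. FGFBP1, a secreted carrier of fibroblast growth factors, read 9.64 and 9.76 in the H1993 control and 10.32 and 10.35 in the knockdown arrays. In H1693 it went from 11.69 and 11.64 to 8.96 and 8.86. The line that was higher in the control arrays was therefore lower after knockdown, with no overlap between groups, a difference of 3.39 (SE 0.10, adjusted p = 3.13e-05). SERPINB7, a serine protease inhibitor of the epidermis, went from 8.23 and 8.09 to 9.79 and 9.74 in H1993 and from 7.33 and 7.04 to 5.42 and 5.49 in H1693, a difference of 3.33 (SE 0.14, adjusted p = 6.74e-05). The retinoic acid-binding protein CRABP2 also rose in H1993 (1.53) and fell in H1693 (-1.32), with 3 probe sets between 2.85 and 2.90 in the difference. PDE4A, a phosphodiesterase that breaks down cyclic AMP, did the same (0.93 in H1993 and -1.78 in H1693), but its other probe sets gave smaller differences, 0.30 to 0.62. CCND2, a D-type cyclin, rose in H1993 by 1.66, and its other probe set gave a difference of 0.56. In H1693 its group means were 4.90 and 4.16, both below 5, the signal taken here as the floor of detection, so the change of -0.74 there lies within signals not read as expression. RGS17, a regulator of G protein signalling, changed by 2.08 in H1993 and -0.35 in H1693.

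The other genes of this group rose in H1993 while their change in H1693 did not pass. TNFRSF11B, or osteoprotegerin, a decoy receptor for RANKL, read 8.24 and 8.53 and then 11.12 and 11.16 in H1993. In H1693 it stayed between 3.72 and 3.89 on all 4 arrays, below the floor of 5, so a response there is not measurable in the downward direction. The coagulation factor gene F5 was likewise below 5 on the 4 H1693 arrays and rose by 2.76 in H1993. Its other probe set gave a rise of 0.84 in H1993 and a difference of 1.01, against 2.67. SMIM5, a small membrane protein, had the largest rise in H1993, 3.13, but its 2 control arrays read 5.50 and 6.54 and its other probe sets gave differences of 0.54 and 2.95. IVL, the cornified envelope precursor involucrin, rose by 2.12. The tubulin TUBA1A and the tubulin-polymerising protein TPPP differed in which line was higher before knockdown: TUBA1A was at 13.31 and 13.04 in the H1693 and 7.35 and 7.27 in the H1993 control arrays, and TPPP was at 6.68 and 6.82 in H1693 and 8.57 and 8.72 in H1993. Both rose in H1993, TUBA1A to 9.71 and 9.68 and TPPP to 11.15 and 11.24, with second probe sets at 2.14 and 2.45 in the difference.

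The largest differences toward H1693 were led by genes that rose there and by genes that fell in H1993. MS4A15, a membrane protein of the MS4A family, read 6.13 and 6.12 in the H1693 control and 9.40 and 9.19 in the knockdown arrays. In H1993 it was at 5.07 and 5.21 and then 5.30 and 4.91, a difference of -3.20 (SE 0.19, adjusted p = 0.000111). The neuronal adhesion protein AMIGO2, the membrane protein TMEM139 and RPRM, or reprimo, a p53-induced inhibitor of the cell cycle, rose in H1693 by 2.71, 2.07 and 2.06. AMIGO2 was already high in H1993, at 12.87 in the control, so its rise in H1693 narrowed the gap, while the rises of RPRM and TMEM139 widened it. The difference of TMEM139, -2.93, exceeded its rise in H1693 because its change in H1993 was negative.

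Several genes of this group fell in H1993 and lay below 5 in the H1693 control arrays. SPINK6, a Kazal-type inhibitor of kallikreins, went from 10.06 and 10.05 to 7.13 and 6.91 in H1993 and read 4.65 and 4.88 and then 4.79 and 4.70 in H1693. SPINK7, of the same family, fell by 2.44 in H1993 and was at 2.95 and 3.07 in the H1693 control arrays. LINC00473, a long non-coding RNA induced through CREB, went from 7.83 and 7.95 to 5.23 and 5.44 in H1993, against 4.38 and 4.49 in the H1693 control arrays. For these 3 genes the H1693 control arrays were below 5, so the difference states the fall in H1993 and leaves a fall in H1693 unmeasurable. INHBB, the inhibin beta B subunit, fell by 1.09 in H1993, from 12.07 and 12.13, and rose in H1693, from 4.43 and 5.09 to 6.12 and 6.32, and CALCB, the calcitonin gene-related peptide CGRP-beta, by -0.97 in H1993 and 1.26 in H1693. In all, 2 genes with larger differences were passed over because a probe set had the other sign, the adhesion molecule L1CAM (-2.46) and the vesicle protein SYTL5 (-2.25).

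**Figure D2:**
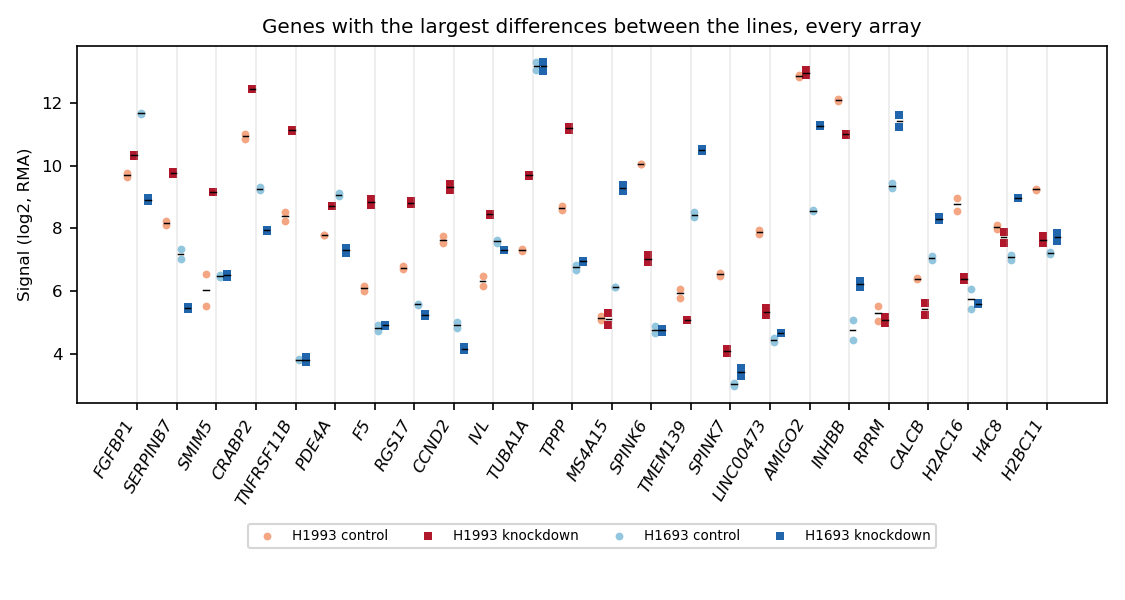
Signal (log2) on each of the 8 arrays for the 12 largest differences toward H1993 (FGFBP1 to TPPP) and the 12 largest toward H1693 (MS4A15 to H2BC11); circles are control and squares knockdown arrays, red tones are H1993 and blue tones H1693, and short bars are group means. TNFRSF11B, SPINK6 and LINC00473 lie below 5 on every H1693 array, while FGFBP1 and CRABP2 are well above it in all groups.

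**Figure D3:**
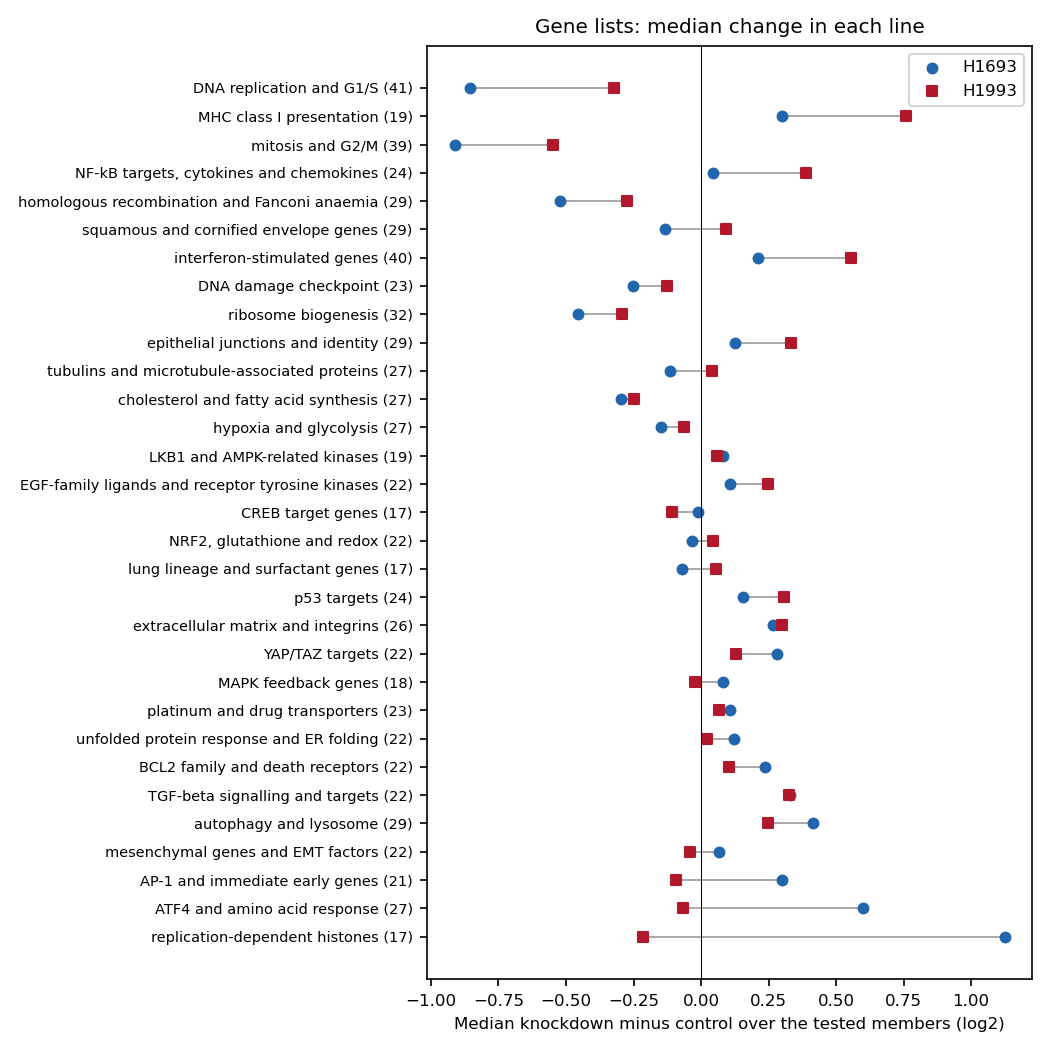
Median change after knockdown (log2) over the tested members of each of the 31 gene lists, in H1693 (circles) and H1993 (squares), ordered by the median of the members' differences; the number of tested members is in brackets. DNA replication and G1/S genes stand at the top and replication-dependent histones at the bottom.

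Gene lists were read next, each against the 26.0% of all genes whose change differed and against their median difference of 0.05. The lists are described by counts and medians without a test of the list, and members named beyond the 4 largest differences of a list were chosen after their values were seen. Where leaving out 1 array moved a list's median by over 1.5 times, those values are given beside it. The response to amino acid shortage, which the transcription factor ATF4 drives, rose in nearly all members in H1693 and in few in H1993. Of 27 tested genes 26 rose and 1 fell in H1693, against 5 and 7 in H1993, with medians of 0.60 and -0.07. The difference passed for 20 toward H1693 and 1 toward H1993 (median -0.67). TRIB3, a pseudokinase that ATF4 induces, read 11.28 and 11.23 in the H1693 control and 12.82 and 12.85 in the knockdown arrays. In H1993 it went from 10.26 and 10.34 to 9.96 and 10.04, a small fall, a difference of -1.88 (SE 0.09, adjusted p = 6.74e-05). DDIT4, an inhibitor of mTORC1, rose by 1.25 in H1693 and fell by 0.59 in H1993. The mitochondrial PEP carboxykinase PCK2 and the cystine transporter SLC7A11 rose in H1693, by 1.40 and 1.18, and read -0.06 and -0.06 in H1993, where neither passed, with differences of -1.16 to -0.41 on the other probe sets of SLC7A11. The serine and glycine synthesis genes SHMT2 and PSAT1 went in opposite directions, -0.63 in H1993 and 0.59 in H1693 and -0.48 in H1993 and 0.51 in H1693. The ATF4 transcript rose by 0.24 in H1693 (adjusted p = 0.0143) and did not pass in H1993 (-0.11, adjusted p = 0.165).

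The control levels of this list already stood higher in H1693. The median gap, H1993 minus H1693, was -0.44 before and -1.17 after knockdown, so the lines moved apart. SESN2 and PHGDH, a stress-induced regulator of mTORC1 and the first enzyme of serine synthesis, rose in both lines, by 0.86 in H1993 and 1.01 in H1693 and by 0.72 in H1993 and 0.82 in H1693, and SLC1A5, a glutamine transporter, was the one member with a larger rise in H1993 (0.89 against 0.59, adjusted p = 0.0335). That call was lost when any one array was left out. ATF4 binds with C/EBP proteins to the letters TGATGNAA, a motif searched for after these values were seen. The promoters of 6 of 24 listed genes with a promoter in the RefSeq table held it on either strand, from 250 bases before to 50 after the start, against 2.16% of the tested genes. The promoter of ASNS (asparagine synthetase, -0.12 in H1993 and 0.77 in H1693, difference -0.88) is shown as an example, chosen after its values were seen. It lies at chr7:97872359-97872658 on the minus strand of GRCh38.p14, with the match in capitals, and the match starts 68 bases before the start site and overlaps no other motif searched.
ASNS: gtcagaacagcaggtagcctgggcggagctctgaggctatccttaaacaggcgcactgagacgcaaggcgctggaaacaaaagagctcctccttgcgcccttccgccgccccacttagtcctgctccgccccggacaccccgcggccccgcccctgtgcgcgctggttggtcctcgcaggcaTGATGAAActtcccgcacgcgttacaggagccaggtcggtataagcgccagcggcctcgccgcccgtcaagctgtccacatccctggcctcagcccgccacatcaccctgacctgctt

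Most immediate early genes, which cells switch on within minutes of a stimulus, rose in H1693, and several fell in H1993. Of 21 tested, 13 rose and 3 fell in H1693 and 3 rose and 6 fell in H1993, and the difference passed for 11 toward H1693 and 2 toward H1993 (median -0.30). JUN, a subunit of AP-1, read 11.75 and 11.62 in the H1993 control and 10.90 and 10.75 in the knockdown arrays. In H1693 it went from 9.49 and 9.40 to 10.49 and 10.65. The gap of 2.24 between the control groups shrank to 0.26 after knockdown, a difference of -1.98 (SE 0.13, adjusted p = 0.000132). The orphan nuclear receptors NR4A1 and NR4A2 likewise fell in H1993 and rose in H1693, NR4A1 by -1.30 in H1993 and 0.61 in H1693. NR4A2 went from 8.88 and 9.07 to 7.98 and 7.97 in H1993 and from 7.63 and 7.23 to 8.45 and 8.46 in H1693. All other bright probe sets of both lay between -2.94 and -1.49 in the difference. NR4A3 fell in H1993 by 0.94 and was at -0.24 in H1693. FOS and FOSB, further AP-1 subunits, rose in H1693 by 1.18 and 1.42 and were at 0.02 and -0.09 in H1993, although the second probe set of FOSB gave a difference of only -0.05. FOSL1, another AP-1 subunit, went the other way, with a fall of 1.03 in H1693 and a change of 0.15 in H1993, which did not pass. ZFP36, which destabilises cytokine mRNAs, rose more in H1993 (1.03 against 0.30).

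Genes close to this group in the EGF receptor and MAPK pathways were mixed. HBEGF, a ligand of the EGF receptor, fell by 0.60 in H1993 and rose by 1.02 in H1693, and ETV5, a transcription factor induced by ERK, fell by 0.79 and rose by 0.53. DUSP1, a phosphatase of MAP kinases, and SPRY1, a feedback inhibitor of receptor kinases, rose in H1693 by 0.87 and 0.84. Over the 18 MAPK feedback genes 4 differed toward H1693 and 3 toward H1993 (median -0.07, between -0.12 and -0.0026 over the 8 fits that leave out 1 array), or 1 toward H1993 without H1993 replicate 1 of either group, H1693 control replicate 2 or H1693 knockdown replicate 1. Of 22 EGF-family ligands and receptor tyrosine kinases 7 differed toward H1993 and 2 toward H1693 (median 0.07, between -0.0027 and 0.15 over the 8 fits that leave out 1 array). The fibroblast growth factor receptors FGFR1 and FGFR3 rose in H1993 and fell in H1693, by 0.76 in H1993 and -0.79 in H1693 and by 0.90 in H1993 and -0.21 in H1693, with other probe sets as low as 0.16 and 0.18 in the difference. The receptor AXL fell in H1693, from 12.03 and 12.13 to 10.60 and 10.64, and was below 5 on all H1993 arrays. Its call (adjusted p = 0.0161) was lost without H1693 control replicate 2 or knockdown replicate 1 (adjusted p = 0.0559 and 0.0515). MET did not differ past the threshold (difference -0.05, SE 0.14, adjusted p = 0.81).

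The CREB list held CREB target genes and also CRTC2, SIK2 and SIK3, which regulate CREB signalling and are not counted as its targets. Of its 17 tested genes 6 differed toward H1693 and 3, among them SIK3, toward H1993. Besides LINC00473 and the NR4A genes, PTGS2, the inducible cyclooxygenase, rose by 1.40 in H1993 and was at -0.10 in H1693. The median of this list was 0.07 and turned to -0.29 with the mean of each gene's probe sets, and it lay between -0.09 and 0.10 over the 8 fits that leave out 1 array, so it has no stable sign.

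**Figure D4:**
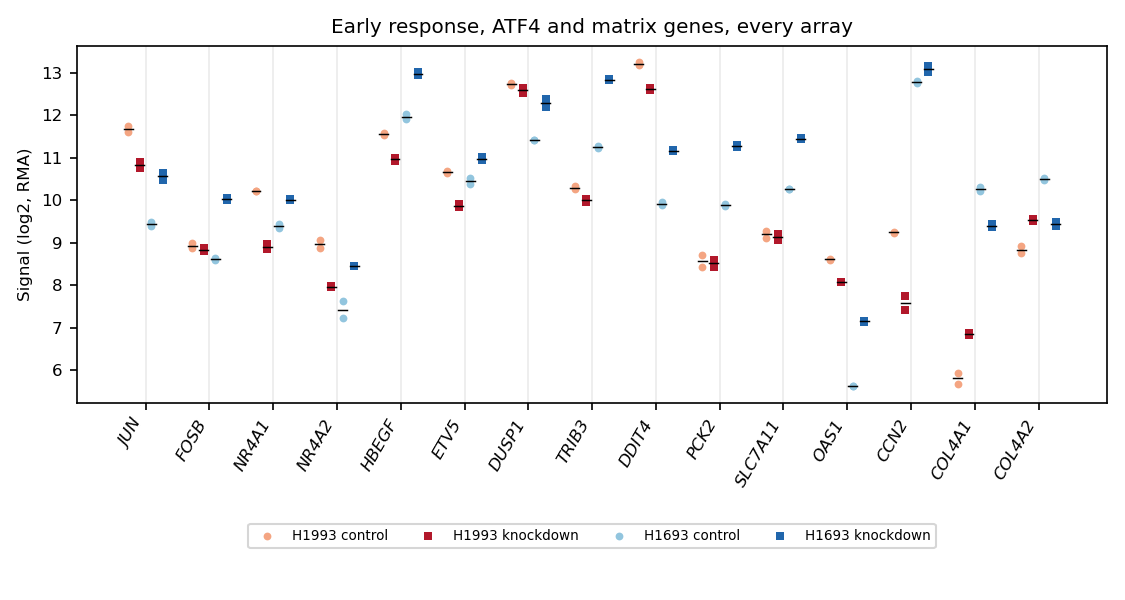
Signal (log2) on each of the 8 arrays for immediate early genes, MAPK feedback genes, ATF4 targets, OAS1, CCN2 and the collagen IV genes; circles are control and squares knockdown arrays, red tones H1993 and blue tones H1693, bars are group means. JUN, NR4A1, NR4A2 and HBEGF move down in H1993 and up in H1693, and COL4A1 and COL4A2 move up in H1993 and down in H1693.

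Most genes of DNA replication fell further in H1693. Of 41 tested genes of replication and the G1/S transition, 40 fell in H1693 (median -0.86) and 22 in H1993 (median -0.32), and none rose in either line. The difference passed for 33 toward H1993 and 0 toward H1693, with a median of 0.56, and without H1993 control replicate 1 the second count was 1. CCNE2, a cyclin E that starts S phase, and the helicase subunit MCM4 had the largest differences, 1.12 and 0.97: CCNE2 changed by 0.02 in H1993 and -1.10 in H1693, and MCM4 by -0.33 in H1993 and -1.30 in H1693, with other probe sets of MCM4 as low as 0.16. The DNA polymerase epsilon subunit POLE2 read 9.99 and 9.92 in the H1693 control and 8.68 and 8.93 in the knockdown arrays. In H1993 it read 10.39 and 10.30 and then 10.12 and 10.14, a change that did not pass there (-0.22, adjusted p = 0.101), a difference of 0.93 (SE 0.13, adjusted p = 0.00222). PCNA, the sliding clamp, was at -0.12 in H1993 and -0.86 in H1693, and the ribonucleotide reductase subunits RRM1 and RRM2 at -0.32 in H1993 and -1.11 in H1693 and at -0.15 in H1993 and -0.84 in H1693. Control levels of the list were close, with a median gap of 0.18, which widened to 0.72 after knockdown.

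E2F factors, which switch on S phase genes, bind sites that contain the letters TTTNNCGC, searched on both strands. 22 of 36 replication genes with a promoter in the table (61.1%) held them, against 9.33% of the tested genes, as did 12.5% of the mitosis list. The promoters of POLE2 and of CLSPN, a checkpoint adaptor of the replication fork described below, are shown because both fell in H1693 alone. They lie at chr14:49688165-49688464 and chr1:35769929-35770228, both on the minus strand of GRCh38.p14 (RefSeq), with the matches in capitals. POLE2 has 2 matches, starting 81 and 5 bases before the start site, and CLSPN has 1, starting 5 bases before it. None overlaps another motif searched. Those others were the letters TTTGAA of the cell cycle homology region, found in 1384 of 12733 promoters of tested genes, TGANTCA of AP-1 (in 682), TGACGNCA of CREB (in 637), and GGGA, any 4 bases and CC of NF-kB (in 3889).
POLE2: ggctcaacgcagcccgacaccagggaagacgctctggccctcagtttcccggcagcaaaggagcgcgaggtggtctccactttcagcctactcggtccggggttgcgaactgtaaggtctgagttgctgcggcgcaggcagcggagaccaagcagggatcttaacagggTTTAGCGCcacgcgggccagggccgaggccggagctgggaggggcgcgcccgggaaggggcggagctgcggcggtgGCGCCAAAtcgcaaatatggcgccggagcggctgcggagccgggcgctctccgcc
CLSPN: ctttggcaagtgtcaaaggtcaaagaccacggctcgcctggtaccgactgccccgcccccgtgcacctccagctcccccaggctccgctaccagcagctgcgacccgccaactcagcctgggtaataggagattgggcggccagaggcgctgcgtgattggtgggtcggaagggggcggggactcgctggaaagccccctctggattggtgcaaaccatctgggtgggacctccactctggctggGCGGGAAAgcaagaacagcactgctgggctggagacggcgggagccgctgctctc

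Nearly all mitosis genes fell in both lines. Of 39 tested, 39 fell in H1693 (median -0.91) and 37 in H1993 (median -0.55), and the difference passed for 21 toward H1993 and 1 toward H1693 (median 0.36). The first count was 12 without H1693 control replicate 1 and 13 without H1693 control replicate 2. The chromokinesin KIF4A had a difference of 1.07 (-0.12 in H1993 and -1.19 in H1693), but its other probe set gave 0.48 (-0.38 in H1993 and -0.85 in H1693). The next differences by size were those of the spindle checkpoint kinase BUB1B (-0.30 in H1993 and -1.04 in H1693) and the kinetochore protein NDC80 (-0.29 in H1993 and -0.95 in H1693). TOP2A, CDC20, BIRC5 and CDC25B fell in both lines and did not pass for the difference, with values between -0.03 and 0.01 and SE up to 0.12. INCENP, a subunit of the Aurora B complex, was the member that fell more in H1993 (-0.85 in H1993 and -0.28 in H1693, adjusted p = 0.00384 for the difference).

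DNA repair genes followed at a lower share, and ribosome biogenesis genes at a share near that of all genes (31.25% against 26.0%). Of 23 checkpoint genes 8 differed toward H1993 and 2 toward H1693 (median 0.18). CLSPN read 8.81 and 8.85 in the H1693 control and 7.64 and 7.59 in the knockdown arrays, and 8.31 and 8.43 and then 8.48 and 8.46 in H1993, a difference of 1.31 (SE 0.09, adjusted p = 0.000169). TOPBP1, an activator of ATR, fell in H1693 by 0.82 and was at -0.19 in H1993, while WEE1, a kinase that restrains CDK1, and TP53BP1 rose in H1993 alone, by 0.63 and 0.54. Other probe sets gave differences as low as 0.06 for TP53BP1 and 0.36 for TOPBP1, against 0.61 and 0.63. Of 29 recombination and Fanconi anaemia repair genes 11 differed toward H1993 and 2 toward H1693 (median 0.33), among them the helicases BLM (-0.53 in H1993 and -1.12 in H1693) and BRIP1 (-0.17 in H1993 and -0.78 in H1693). The count of 11 was 5 without H1693 control replicate 1 or knockdown replicate 1 and 7 without H1993 knockdown replicate 2, and the checkpoint count of 8 was 5 without H1693 control replicate 1. The counts toward H1693 were less stable: that of the checkpoint genes was 0 or 1 without any one of the 8 arrays, and that of the recombination genes was 1 without any one array except replicate 1 of either H1993 group. Of 32 ribosome biogenesis genes 10 differed toward H1993 and 0 toward H1693 (median 0.16, or 0.10 without H1993 control replicate 1), led by RRS1 (-0.12 in H1993 and -0.61 in H1693) and BOP1 (-0.14 in H1993 and -0.61 in H1693), and without any one of the H1693 arrays 4 or 5 did.

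In H1693 most replication-dependent histone genes rose while replication genes fell. In H1693 12 of 17 tested genes rose and 1 fell (median 1.12), whereas in H1993 2 rose and 7 fell (median -0.21). The difference passed for 14, all toward H1693, with a median of -1.22, the widest of the 31 lists. The linker histone H1-2 read 9.41 and 9.38 in the H1693 control and 11.20 and 11.20 in the knockdown arrays. In H1993 it read 12.40 and 12.42 and then 12.26 and 12.22, a difference of -1.98 (SE 0.08, adjusted p = 4.88e-05). H2AC6 and H4C8 rose by 1.99 and 1.89 in H1693 and were at 0.11 and -0.34 in H1993, and H2AC13 went in opposite directions (-0.98 in H1993 and 1.12 in H1693). H2AC16 and H2BC11, taken by the rule for the largest differences, fell in H1993 by 2.37 and 1.60, with differences of -1.69 to -1.25 on the other probe sets of H2BC11. The mRNAs of these genes normally end in a stem-loop in place of a poly(A) tail, and the usual labelling for these arrays starts from poly(A) tails, so a change in level and a change in tail cannot be told apart here.

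Histone cluster genes chosen by symbol alone, a set added after the values were seen, differed in one direction. Of 54 tested, 31 differed toward H1693 and 0 toward H1993, 23 rose and 2 fell in H1693, and 2 rose and 22 fell in H1993. Their control levels were higher in H1993 for 34 and in H1693 for 7. Histone genes are near-identical copies, and probe sets can read several of them, so these counts hold fewer independent genes than symbols.

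**Figure D5:**
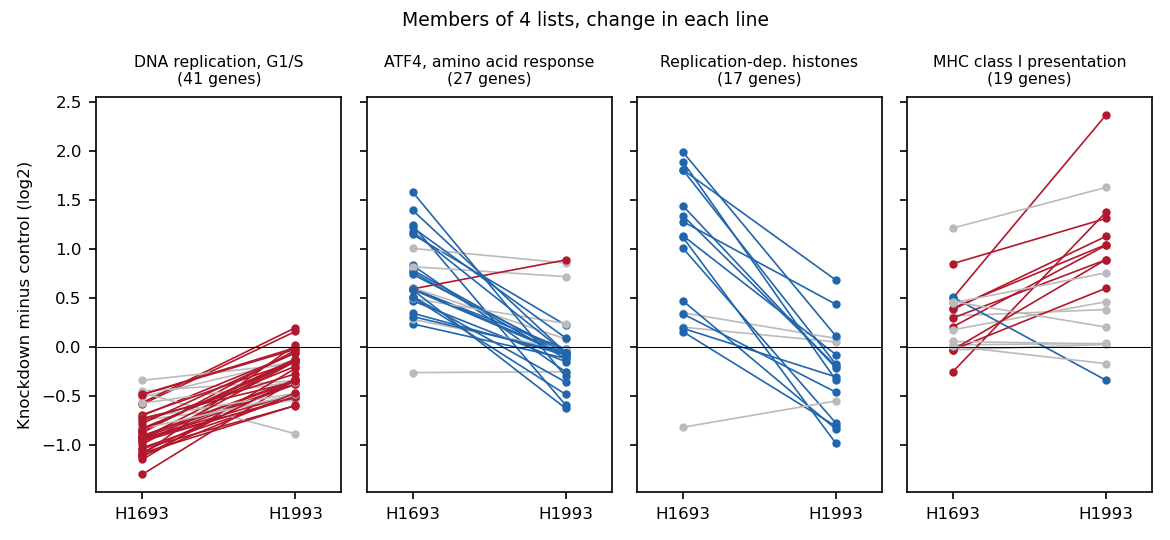
Each line joins the change (knockdown minus control, log2) of 1 gene in H1693 and in H1993, for 4 lists; red lines passed for a higher and blue lines for a lower change in H1993, and grey lines did not pass. Most replication genes fell further in H1693, most ATF4 targets and histones rose in H1693, and 9 of 19 genes of MHC class I presentation differed toward H1993.

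Genes of MHC class I presentation, which display peptides to T cells, rose in part in each line. Of 19 tested, 14 rose in H1993 (median 0.76) and 10 in H1693 (median 0.30), and the difference passed for 9 toward H1993 and 1 toward H1693 (median 0.42). HLA-B read 10.13 and 10.10 in the H1993 control and 12.45 and 12.53 in the knockdown arrays. In H1693 it went from 12.90 and 12.87 to 13.42 and 13.35, a difference of 1.87 (SE 0.09, adjusted p = 6.74e-05). Its other probe sets gave differences of 0.06 and 1.81, and class I genes are similar enough for probes to be shared between them. The immunoproteasome subunit PSMB9 rose by 1.38 in H1993 and fell by 0.25 in H1693, and the peptide transporter TAP1 rose by 0.89 in H1993 and was at -0.03 in H1693. Their other probe sets gave differences as low as 0.51 and 0.53, against 1.63 and 0.92. All 3 were lower in the H1993 control arrays (H1993 minus H1693 -2.77, -3.93 and -2.33), so the lines came closer. NLRC5, the activator of class I genes, rose in both lines without a difference past the threshold (1.63 in H1993 and 1.22 in H1693, adjusted p = 0.0726).

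Many interferon-stimulated genes rose in one or both lines. Of 40 tested, 27 rose in H1993 and 18 in H1693, with medians of 0.56 and 0.21. The difference passed for 14 toward H1993 and 3 toward H1693 (median 0.18). The RNA sensor IFIH1, or MDA5, read 8.03 and 7.95 in the H1993 control and 9.26 and 9.01 in the knockdown arrays, and 8.71 and 8.45 and then 8.49 and 8.65 in H1693, a difference of 1.15 (SE 0.17, adjusted p = 0.00278). IFI44L and the antiviral GTPase MX1 rose in H1993 by 1.65 and 1.48, IFI44L from 7.22 and 7.38 and MX1 from 4.62 and 4.83 in the control arrays, and were at 0.13 and 0.21 in H1693, where neither passed. The second probe set of IFI44L gave a difference of 0.95, against 1.52. OAS1, which makes the messenger that activates RNase L, did the reverse: it fell in H1993, from 8.61 and 8.61 to 8.08 and 8.08, and rose in H1693, from 5.62 and 5.64 to 7.15 and 7.17, with its other bright probe sets between -1.30 and -0.22 in the difference. IFI44, ISG15 and RSAD2 rose in both lines, with differences of -0.32, 0.10 and -0.05 that did not pass.

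The interferon-stimulated response element, searched on both strands as GAAA, any 2 bases and GAAA again, was found in the promoters of 21 of 34 interferon-stimulated genes (61.8%) and 9 of 16 class I genes (56.2%), against 2.81% of the tested genes. The promoters of TAP1 and IFIH1 are shown as members that rose in H1993 alone. They lie at chr6:32853655-32853954 and chr2:162318635-162318934 on the minus strand of GRCh38.p14 (RefSeq). Capitals mark the matches, which overlap each other at one place in each promoter: 2 in TAP1, starting 134 and 128 bases before the start site, and 3 in IFIH1, starting 159, 153 and 21 bases before it. One match of IFIH1 also overlaps another motif searched.
TAP1: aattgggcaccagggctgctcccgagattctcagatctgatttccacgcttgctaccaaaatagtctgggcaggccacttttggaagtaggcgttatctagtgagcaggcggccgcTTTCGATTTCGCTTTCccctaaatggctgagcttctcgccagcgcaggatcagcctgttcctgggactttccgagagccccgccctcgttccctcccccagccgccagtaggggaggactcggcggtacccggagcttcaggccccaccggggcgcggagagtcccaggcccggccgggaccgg
IFIH1: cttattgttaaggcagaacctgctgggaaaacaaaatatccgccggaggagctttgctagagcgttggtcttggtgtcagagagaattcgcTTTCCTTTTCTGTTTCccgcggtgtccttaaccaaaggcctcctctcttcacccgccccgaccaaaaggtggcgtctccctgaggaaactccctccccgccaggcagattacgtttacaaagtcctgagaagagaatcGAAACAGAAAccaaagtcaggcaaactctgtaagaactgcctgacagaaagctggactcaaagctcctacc

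Most NF-kB targets and cytokines rose in H1993, and few did in H1693. Of 24 tested, 14 rose and 1 fell in H1993 and 3 rose and 1 fell in H1693, and the difference passed for 9 toward H1993 and 2 toward H1693 (median 0.35). The cytokine IL1A went from 4.88 and 4.90 to 6.83 and 7.06 in H1993 and read 4.61 and 4.70 and then 5.16 and 4.62 in H1693. IL1B rose by 1.26 in H1993 and was at 0.06 in H1693. The adaptor TRAF1 and the NF-kB subunits RELB and NFKB2 rose in H1993, by 1.59, 1.01 and 0.88, as did the inhibitor NFKBIA, by 0.64, with other probe sets of TRAF1 between 0.27 and 0.73 in the difference. The chemokine CCL2 rose in H1693 (0.90) and was at 0.29 in H1993. The 2 differences toward H1693, CCL2 and CXCL3, did not both pass when any one array was left out.

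Tubulins and microtubule-associated proteins, a group that includes substrates of MARK kinases, differed mostly toward H1993. Of 27 tested, 11 rose and 3 fell in H1993 and 4 rose and 8 fell in H1693, and the difference passed for 12 toward H1993 and 1 toward H1693. That single call toward H1693 was lost without H1993 control replicate 1, H1993 knockdown replicate 2, or replicate 2 of either H1693 group. The list had a median difference of 0.12, or 0.21 without H1993 control replicate 1. Besides TUBA1A and TPPP, the neuronal protein MAP2 rose in both lines, from 4.80 and 4.66 to 7.19 and 7.11 in H1993 and from 11.86 and 11.79 to 12.23 and 12.26 in H1693, a difference of 2.00 (SE 0.10, adjusted p = 6.74e-05). Before knockdown MAP2 was below 5 in H1993, and its other probe sets gave differences of 0.81 to 1.31. The beta tubulin TUBB2A rose by 1.58 in H1993 and was at -0.04 in H1693, TUBB3 rose by 0.85 in H1993 and fell by 0.35 in H1693, and TUBB6 fell in H1693 alone (-0.69). The gamma tubulin TUBG1 fell in both lines (-0.31 in H1993 and -0.75 in H1693).

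Some genes of squamous differentiation rose in H1993. Of 29 tested, 10 rose in H1993 and 1 in H1693, and the difference passed for 11 toward H1993 and 1 toward H1693 (median 0.26), or for 7 toward H1993 without H1993 control replicate 2 or H1693 control replicate 1, and for 2 toward H1693 without H1993 knockdown replicate 1. The cornified envelope protein SPRR1B was at 12.30 and 12.24 in the H1993 control and 14.14 and 14.11 in the knockdown arrays, and below 5 on all H1693 arrays. SPRR1A rose in H1993 (1.76) and fell in H1693 (-0.56), where its other probe set read 0.17 (difference 1.47), and the calprotectin genes S100A8 and S100A9 rose in H1993 by 1.16 and 1.42. The basal keratins KRT5 and KRT14 had differences of -0.06 and 0.10 and did not pass. Among 29 genes of epithelial junctions and identity 9 differed toward H1993 and 3 toward H1693 (median 0.13, or 0.07 without H1993 knockdown replicate 1). The tight junction protein CGN, or cingulin, rose in H1993 by 1.90 and was at -0.06 in H1693, and the desmosomal cadherin DSC2 rose by 0.98 against -0.17. CLDN3, a claudin, rose in both lines and more in H1693 (1.36 against 0.22).

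Mesenchymal and lung lineage genes differed at shares near that of all genes. Of 22 mesenchymal genes 2 differed toward H1993 and 5 toward H1693 (median -0.13). TAGLN, an actin-binding protein, fell in H1693 from 11.27 and 11.20 to 9.33 and 9.52 and was at -0.03 in H1993. The intermediate filament VIM fell in H1993 alone (-0.47), and the matrix protein POSTN rose in H1693 alone (0.91) with H1993 below 5 in both groups. The SNAI1 repressor rose in H1993 and fell in H1693 (0.36 in H1993 and -0.47 in H1693). Of 17 lung lineage genes 2 differed toward H1993 and 3 toward H1693 (median 0.04, between 0.01 and 0.14 over the 8 fits that leave out 1 array), with LAMP3, a lysosomal membrane protein of type II pneumocytes, rising in both lines and more in H1693 (a difference of -0.94). The counts toward H1693 of these lists fell to 3 for the mesenchymal genes without H1993 knockdown replicate 2 or any of the 4 H1693 arrays, and to 1 for the lung genes without any one of the arrays except H1693 control replicate 1 and H1693 knockdown replicate 1. The count of lung genes toward H1993 was 0 without replicate 2 of either H1693 group and 1 without any one of the others except H1993 control replicate 2 and H1693 control replicate 1.

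Basement membrane collagen went in opposite directions. COL4A1 read 5.69 and 5.94 in the H1993 control and 6.87 and 6.82 in the knockdown arrays. In H1693 it went from 10.31 and 10.22 to 9.38 and 9.43. The lines came closer, a difference of 1.89 (SE 0.13, adjusted p = 0.000165), and its partner COL4A2, which is transcribed from the same start region, changed by 0.68 in H1993 and -1.06 in H1693. The other probe set of COL4A1 gave a difference of 1.09, with a change in H1993 of 0.26, and those of COL4A2 gave 1.05 to 1.28. The integrin ITGB4 rose in H1693 alone (1.16, with differences of -0.78 to -0.26 on its other probe sets), and ITGA1 fell in H1993 alone (-0.93). Over the 26 genes of matrix and integrins, 4 differed toward H1993 and 5 toward H1693, with near-equal medians in the lines (0.30 and 0.27), and a median difference of -0.01, between -0.06 and 0.02 over the 8 fits that leave out 1 array. Without H1993 replicate 2 or H1693 replicate 1 of either group, 3 differed toward H1693.

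Targets of TGF-beta and YAP split gene by gene. CCN2, a matrix protein induced by both pathways, fell in H1993 from 9.24 and 9.26 to 7.74 and 7.42. In H1693 it read 12.82 and 12.77 and then 13.01 and 13.17, a change that did not pass (0.30), a difference of -1.97 (SE 0.15, adjusted p = 0.000249). CCN1 fell by 1.00 in H1993 and rose by 0.29 in H1693, from the higher control level in H1693. PMEPA1, a TGF-beta feedback gene, rose in H1693 alone (1.42), and the decoy receptor BAMBI rose in H1993 alone (1.39). The ligand TGFB1 rose in H1993 and fell in H1693 (0.65 in H1993 and -0.42 in H1693). Of 22 TGF-beta genes 5 differed toward H1993 and 9 toward H1693 (median -0.10, between -0.22 and -0.06 over the 8 fits that leave out 1 array), and of 22 YAP targets 3 and 5 did (median -0.02, between -0.09 and 0.08 over the 8 fits that leave out 1 array), at a control gap of -1.39 (median, H1993 minus H1693). Without H1693 control replicate 1, 3 of the TGF-beta genes differed toward H1993, and without any one array except H1993 control replicate 2 and H1993 knockdown replicate 2, 3 of the YAP targets differed toward H1693.

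Metabolic lists held differences in both directions, and those of cholesterol and hypoxia at a higher share than all genes (48.1% and 48.1% against 26.0%). Of 27 genes of cholesterol and fatty acid synthesis, 7 differed toward H1993 and 6 toward H1693 (median 0.10): HMGCS1, an early enzyme of the mevalonate pathway, rose in H1993 and fell in H1693 (0.32 in H1993 and -0.50 in H1693), and the regulator SREBF1 did the reverse (-0.28 in H1993 and 0.51 in H1693, with differences of -0.37 to -0.28 on its other probe sets). Those counts were 4 and 3 without H1693 knockdown replicate 2, 4 toward H1993 without replicate 1 of either control group, and 3 toward H1693 without H1693 control replicate 2. Of 27 genes of hypoxia and glycolysis 10 differed toward H1993 and 3 toward H1693 (median 0.09, or 0.16 without H1993 knockdown replicate 2), with the phosphofructokinase PFKP at 0.41 in H1993 and -0.55 in H1693 and the glucose transporter SLC2A1 at -0.13 in H1993 and 0.57 in H1693, with other probe sets of SLC2A1 between -0.98 and -0.23 in the difference. Of 22 genes of the unfolded protein response 2 and 5 did (median -0.09, or -0.06 without H1993 knockdown replicate 2), with HERPUD1, an ER degradation factor, rising in H1693 alone (0.82). Of 22 genes of NRF2 and glutathione 4 differed toward H1993 and 2 toward H1693 (median 0.05, or -0.01 without H1993 knockdown replicate 1), with the aldo-keto reductase AKR1C3 rising in both lines (1.08 in H1993 and 2.02 in H1693). The count of 4 was 1 without H1693 control replicate 1, and that of 2 was 4 without H1993 control replicate 1. Without H1693 control replicate 2, 1 hypoxia gene differed toward H1693. Of 29 autophagy and lysosome genes 4 differed toward H1993 and 6 toward H1693 (median -0.11, or -0.03 without H1993 control replicate 2 and -0.07 without H1693 control replicate 1), the first count being 1 or 2 without any one array except replicate 2 of the H1993 groups. The lysosomal proteases TPP1 and CTSD rose in H1693 alone (0.84 and 0.88), and TFEB, the lysosomal master regulator, rose in H1993 and fell in H1693 (0.49 in H1993 and -0.26 in H1693).

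Genes tied to DNA damage and platinum response, the subject of the series title, were split. The difference passed for 54.2% of p53 targets, against 26.0% of all genes. The shares were nearer that of all genes for the BCL2 family and death receptors (31.8%) and for platinum and drug transporters (34.8%). The transporter list also holds genes that are not transporters, among them ERCC1, GSTP1 and metallothioneins. Of 24 p53 targets 7 differed toward H1993 and 6 toward H1693 (median 0.03, between -0.02 and 0.08 over the 8 fits that leave out 1 array). GDF15, a stress cytokine that ATF4 also induces, went from 9.65 and 9.64 to 11.67 and 11.52 in H1693 and read 7.81 and 7.93 and then 7.81 and 7.91 in H1993, a difference of -1.96 (SE 0.11, adjusted p = 9.37e-05), with its other probe sets between -2.27 and -0.75. The death receptor TNFRSF10B, or DR5, rose in both lines and more in H1693 (0.31 in H1993 and 1.13 in H1693). CDKN1A, the CDK inhibitor p21, rose in H1993 by 0.63 and was at -0.07 in H1693, and DDB2, a nucleotide excision repair factor, rose in H1993 and fell in H1693 (0.40 in H1993 and -0.54 in H1693). Of 22 genes of the BCL2 family and death receptors 2 differed toward H1993 and 5 toward H1693 (median -0.10, between -0.19 and -0.0006 over the 8 fits that leave out 1 array), with the proapoptotic BIK rising in H1993 alone (1.02), at a difference of 0.99, or 0.63 to 0.89 on its other probe sets. Of 23 platinum and drug transporter genes 6 and 2 did (median -0.09, or -0.05 without H1693 control replicate 2), the second count being 1 without any one control array or without H1693 knockdown replicate 2. The copper and platinum importer SLC31A1, or CTR1, rose in H1693 (0.86) and was at 0.17 in H1993. The exporter ATP7B rose in H1993 and fell in H1693 (0.69 in H1993 and -0.22 in H1693), a difference of 0.91 that became 0.29 and no longer passed with the mean of its probe sets. No cisplatin-treated samples were analysed here.

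Kinases related to MARK2 differed at a share near that of all genes. Of 19 LKB1 and AMPK-related kinases 3 differed toward H1993 and 3 toward H1693 (median 0.09, or 0.04 without H1993 control replicate 1 and 0.06 without H1693 knockdown replicate 1). PRKAA2, a catalytic subunit of AMPK, rose in H1693 from 5.68 and 5.65 to 7.19 and 7.09 and was at 0.06 in H1993, and SIK3 rose in H1993 alone (0.79). Their other probe sets gave differences of -2.12 to -0.42 for PRKAA2 and 0.39 for SIK3, against -1.42 and 0.72. STK11, which encodes LKB1, did not pass for the difference (-0.29, adjusted p = 0.0604).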

How the data were processed

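Biotinylated cRNA from total RNA was read on Affymetrix PrimeView arrays, per the labels' protocols. The values the authors deposited are log2 signals of probe sets, and the submitters' processing notes name RMA and Affymetrix Expression Console. RMA subtracts background, normalises arrays to one distribution and summarises probes, and signal near the background compresses differences. Of 49395 probe sets, 44994 have 1 gene symbol in the platform annotation, 1832 several and 2569 none. The 44988 used gave 18132 genes, and 44961 matched a gene ID of the RefSeq table (GRCh38.p14). For each gene the brightest probe set by mean over the 8 arrays was taken, and it was tested where at least 2 arrays reached log2 5, the floor.

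A 4-group means model was fitted in limma 3.58.1 (R 4.3.3) with eBayes, and p-values were adjusted over all tested genes (Benjamini-Hochberg, 0.05). SE is the moderated standard error, and an SD of 2 arrays is not given. P-values measure the spread between biological replicates per the labels, and 2 arrays per group limit the precision. In data simulated from this comparison over 15888 genes, 2%, 26%, 90% and 100% of differences of 0.25, 0.5, 1 and 2 were recovered. The adjusted threshold depends on the share of genes that differ, so these rates need not hold for the measured arrays. Replicate numbers were not used to pair the arrays. Deviations of same-numbered replicates correlated at 0.29 between the H1993 control and knockdown groups and at -0.17 to 0.03 between the other pairs of groups. The members and lists were chosen with earlier results of these data known. Named were the 12 largest differences each way and the 8 most opposite genes, provided bright probe sets shared the sign, plus the MARK genes and up to 4 genes per list. Other genes, and the promoters shown, were chosen after their values were seen. Alternatives changed the arrays fitted, replicate block, floor, scaling, probe set, variance model, fold and arrays left out.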

Additional observations from a re-analysis of the deposited data

Results flagged for a closer look

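The knockdown change differed between H1993 and H1693 by the test of the difference itself (limma, Benjamini-Hochberg adjusted p below 0.05) for each gene below. The value is the log2 change in H1993 minus that in H1693. FGFBP1 (3.39), SERPINB7 (3.33), SMIM5 (3.10), CRABP2 (2.85), TNFRSF11B (2.74), PDE4A (2.71), F5 (2.67), RGS17 (2.42), CCND2 (2.41), IVL (2.40), TUBA1A (2.39), TPPP (2.35) and COL4A1 (1.89) were higher in H1993. MS4A15 (-3.20), SPINK6 (-3.01), TMEM139 (-2.93), SPINK7 (-2.83), LINC00473 (-2.76), AMIGO2 (-2.62), INHBB (-2.55), RPRM (-2.26), CALCB (-2.23) and NR4A2 (-2.03) were lower in H1993. So were the histone genes H2AC16 (-2.23), H4C8 (-2.23), H2BC11 (-2.11) and H2AC13 (-2.11), whose probe sets can read near-identical copies. MARK2, the targeted gene, fell in both lines and by more in H1993 (-1.08). Among these genes the control level of one line was below 5 for TNFRSF11B, F5, SPINK6, SPINK7, LINC00473, INHBB and CCND2 (all in H1693).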

How the results depend on the processing

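Under the alternatives run, no named difference past the threshold changed direction, while MARK4, which did not pass, ran from -0.16 to 0.11 with 1 array left out. Of 2208 values for 138 named genes 2167 kept their side of the threshold, 39 lost it (in 12 genes, among them AXL, BRIP1, TP53BP1 and ATP7B) and 2 gained it (both MARK1). Counting only changes of at least 1.5-fold gave 1102 higher and 859 lower differences, 1196 and 646 changes in H1993, 892 and 784 in H1693, and 3183 and 3565 between controls, by construction. Leaving out 1 array gave 1517 to 2028 higher and 1197 to 1568 lower differences, 2680 to 3124 and 2024 to 2463 changes in H1993, 2081 to 3075 and 1986 to 2872 in H1693, and 4628 to 5137 and 5021 to 5519 between controls. The lone array of a group is there assumed to vary like the others. With the replicate block, though the labels give the arrays only a shared number, 2123 were higher and 1649 lower. With arrays centred on their median 2144 and 2100 were, and with all 12 arrays 2001 and 1551. Of 496 list medians 20 turned sign, all in lists with medians of 0.10 or nearer 0 (p53 targets, receptor tyrosine kinases, matrix, YAP, cholesterol, NRF2, CREB and AMPK-related kinases). The cause of these shifts was not tested. A motif and the histone symbols were added after seeing the data.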
